A study of Mus musculus with 6 samples.

Results

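Inward rectifier potassium channels of the Kcnj gene family were followed through bulk RNA sequencing of whole mouse retina. The members were 10 genes, taken by symbol from the deposited count table of 31169 genes: Kcnj2, Kcnj3, Kcnj4, Kcnj9, Kcnj10, Kcnj11, Kcnj12, Kcnj13, Kcnj14 and Kcnj16. The retinas came from C57BL/6 mice that were 2 months old at harvest and had received an intracameral injection at 1 month, 4 weeks earlier. The injection was saline in 3 libraries and microbeads 15 μm in diameter, which obstruct the outflow of aqueous humor and raise intraocular pressure, in the other 3. The labels name no genetic alteration and do not say whether each library came from a separate animal, so p-values measure the spread between these libraries, which may be technical. The question for this gene family was which channels differed in transcript level between saline and microbead retina.

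Inward rectifiers pass potassium more readily into the cell than out of it, and so hold the membrane near the potassium equilibrium potential. Their subunits assemble as tetramers around a single pore. In the retina the family is best known from Müller glia, where Kir4.1, the product of Kcnj10, carries potassium away from active neurons. Kir2 channels (Kcnj2, Kcnj4, Kcnj12 and Kcnj14) rectify strongly, Kir3 channels (Kcnj3 and Kcnj9) open on binding of G protein βγ subunits, Kir6.2 (Kcnj11) forms the pore of ATP-sensitive channels, and Kir7.1 (Kcnj13) is the potassium channel of the apical membrane of the pigment epithelium. Kir5.1 (Kcnj16) works chiefly in a complex with Kir4.1.

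Each member carries the signature of a selectivity filter, the part of the pore that chooses potassium over sodium. The signature is that of potassium channels in general and does not by itself mark this family. Its coding sequence is shown here for 7 members. Each line gives 27 bases of the coding strand, 5′ to 3′, from the GENCODE vM21 transcripts, and the capitals mark the 15 bases, or 5 codons, of the filter signature.
Kcnj10: cagaccACCATCGGCTATGGCttccgc
Kcnj2: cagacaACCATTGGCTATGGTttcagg
Kcnj14: cagacgTCCATAGGCTATGGTgtgcgc
Kcnj3: gaggccACCATCGGCTATGGCtaccgc
Kcnj9: gagaccACCATCGGCTATGGGcaccgg
Kcnj11: caggtgACCATTGGTTTCGGCgggcgc
Kcnj13: caacttACAATTGGTTATGGTaccatg
Among the sequences shown, the identity over these 27 bases ran from 48.1% (Kcnj3 with Kcnj13 and Kcnj13 with Kcnj14) to 88.9% (Kcnj3 with Kcnj10), and Kcnj3 and Kcnj10 had the same 15 bases in capitals. No stretch of 100 bases in the transcripts of one member occurred in another member, so a 100-base read that matches one member exactly does not match another.

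Total counts ran from 36085737 to 46481382 in the saline libraries and from 13574949 to 19834366 in the microbead libraries, so the saline libraries were all deeper, and the names of the libraries also fall into one series for saline and another for microbead. Treatment, depth and name series cannot be told apart. A level of 3 counts, the limit that a count of 0 allows, corresponded to 0.0622 to 0.217 CPM (counts per 1000000 of the library size, scaled by TMM), for counting error only. Rod markers summed to 57926 to 86856 CPM, as retina should show, and no marker of the lists examined was at 0 in all libraries. Saline replicate 1 had the lowest sum of 8 ganglion cell markers (327 CPM, against 823 to 1236 in the other libraries), and saline replicate 3 had the highest sums of 11 pigment epithelium markers (359 CPM, against 71.6 to 231) and 7 lens genes (281 CPM, against 0.867 to 21.9). Sums of 10 Müller glia markers and of 10 endothelial markers were lower in all microbead libraries than in any saline library. In whole retina, fewer cells of a type and less RNA per cell cannot be told apart.

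Of the 10 members, 9 had enough counts to be tested, and 2 were lower after microbead injection at an adjusted p under 0.05 from edgeR's quasi-likelihood test: Kcnj12 and Kcnj14. Over all 17707 genes tested, 12.8% passed this threshold and 6.31% passed it as lower, so 2 of 9 members is read against a high background. No member passed as higher, where 6.46% of all genes did. At an unadjusted p under 0.05 edgeR gave 0 higher and 2 lower members, where 15.3% of all genes were higher and 16.2% lower, and limma-voom gave 1 higher and 2 lower, against 15.8% and 15.9%. With adjustment DESeq2 and limma-voom each gave 0 higher and 2 lower members, against 5.84% higher and 5.77% lower of all 31169 genes in DESeq2 and 6.62% higher and 5.86% lower of the tested genes in limma-voom. The DESeq2 shares include the low genes that edgeR and limma-voom left out, so they are not over the same genes. The groups did not overlap for 3 of the 9 members (Kcnj9, Kcnj12 and Kcnj14), against 37.8% of all genes tested. The median log2 fold change was 0.17 over the 9 members and -0.03 over all genes.

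**Figure D1:**
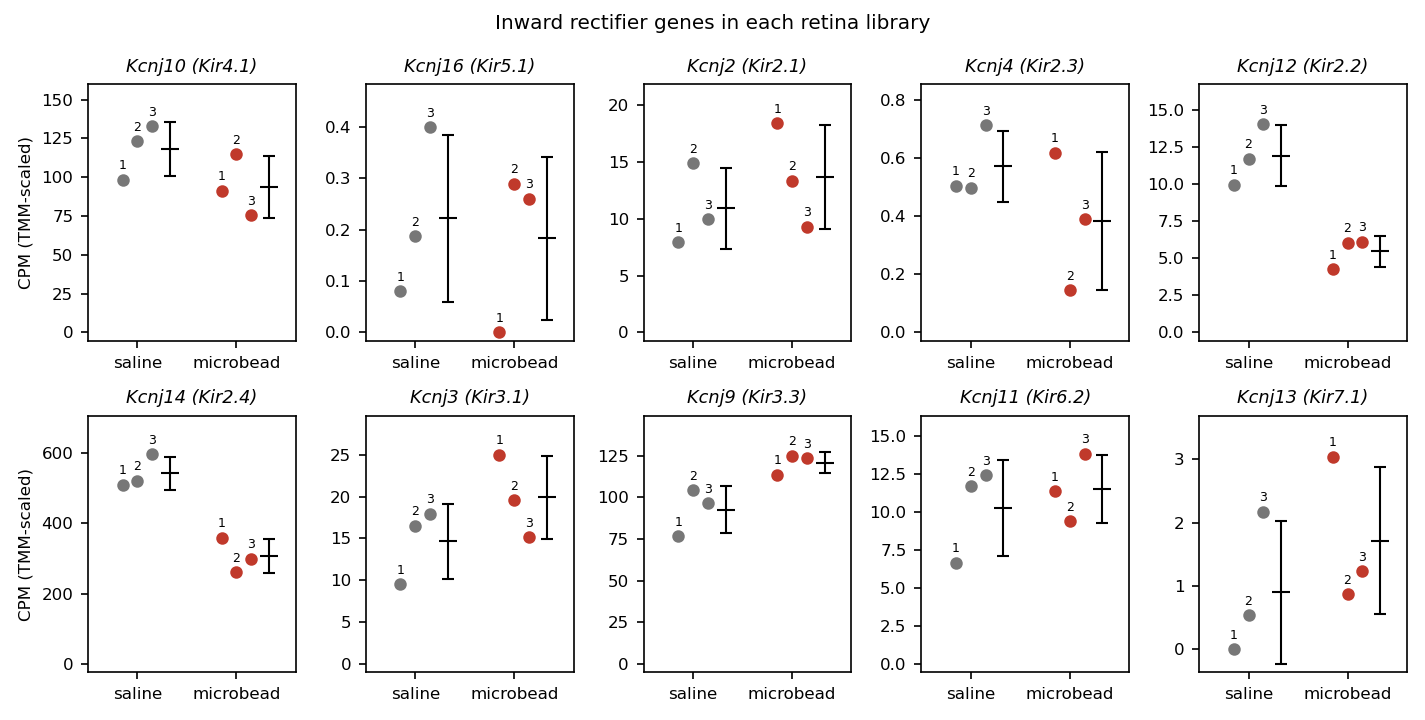
Level of each of the 10 members in CPM (vertical axes, one scale per gene) in the 3 saline and 3 microbead libraries, with points for libraries numbered by replicate and bars for the mean and SD. Kcnj14 and Kcnj12 are lower in all 3 microbead libraries, Kcnj9 is higher in all 3, and the groups overlap for the other members.

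Kcnj14 encodes Kir2.4, a strong rectifier, and lies on chromosome 7 from 45816460 to 45824782 on the reverse strand (GRCm38, GENCODE vM21). It stood at 509.5, 522 and 596 CPM in the saline libraries and at 358, 261 and 299 CPM in the microbead libraries. All microbead libraries were below all saline libraries, with means of 543 ± 47.1 CPM and 306 ± 48.9 CPM (SD, n = 3 each). The log2 fold change was -0.82 (standard error 0.18, 95% interval -1.23 to -0.41), a change of -43.5%, with an adjusted p of 0.0242 from edgeR. The direction was the same with each library left out (-0.96 to -0.71), but the adjusted p from edgeR rose to 0.0829 without saline replicate 2, to 0.0829 without microbead replicate 2 and to 0.105 without microbead replicate 3. Of the 100-base stretches of Kcnj14, 20.2% also occur in Gm5522, a processed pseudogene. The counts of Gm5522 were 83, 119 and 90 after saline and 6, 2 and 5 after microbeads, at most 0.473% of the counts of Kcnj14 in any library. Gm5522 was lower by edgeR (log2 fold change -3.17, adjusted p = 0.0111), though not without microbead replicate 3 (adjusted p = 0.0668). How reads that match both loci were counted is not given in the sources used here.

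Kcnj12 encodes Kir2.2, another strong rectifier, and lies on chromosome 11 from 61022564 to 61071131 on the forward strand. Its level was 9.96, 11.7 and 14.1 CPM after saline and 4.27, 6.07 and 6.11 CPM after microbeads. The groups were again apart, with a mean of 11.9 ± 2.06 CPM in saline and 5.48 ± 1.05 CPM in microbead retina (SD, n = 3 each). The log2 fold change was -1.12 (standard error 0.26, 95% interval -1.71 to -0.54), a change of -54.1%, with an adjusted p of 0.0275 from edgeR. This call depended on single libraries: it held without saline replicate 1 (adjusted p = 0.0197 from edgeR), and with any one of the other 5 libraries left out the adjusted p was 0.0605 to 0.0957, at log2 fold changes of -1.22 to -0.97.

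The other Kir2 members did not pass the test. Kcnj2 encodes Kir2.1, the classical strong rectifier of muscle and neurons. It stood at 7.94, 14.9 and 9.96 CPM in saline and at 18.4, 13.4 and 9.29 CPM in microbead retina, and the groups overlapped. Its log2 fold change of 0.33 had a 95% interval of -0.39 to 1.04 (adjusted p = 0.518 from edgeR). With a library left out it ran from 0.045 (without microbead replicate 1) to 0.61 (without saline replicate 2). Kcnj4 encodes Kir2.3 and was near the limit of detection, with 19, 24 and 25 counts in saline and 12, 2 and 6 counts in microbead retina. These correspond to 0.505, 0.498 and 0.713 CPM and to 0.618, 0.144 and 0.390 CPM, and the log2 fold change of -0.53 had an interval of -1.91 to 0.85 (adjusted p = 0.595 from edgeR), and was -0.15 without microbead replicate 2 and -1.07 without microbead replicate 1. Per kb of exon, the ratio of Kcnj12 to Kcnj2 was 2.48, 1.56 and 2.80 in the saline libraries and 0.459, 0.899 and 1.30 in the microbead libraries. Kcnj12 thus exceeded Kcnj2 in every saline library and in 1 of the 3 microbead libraries.

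**Figure D2:**
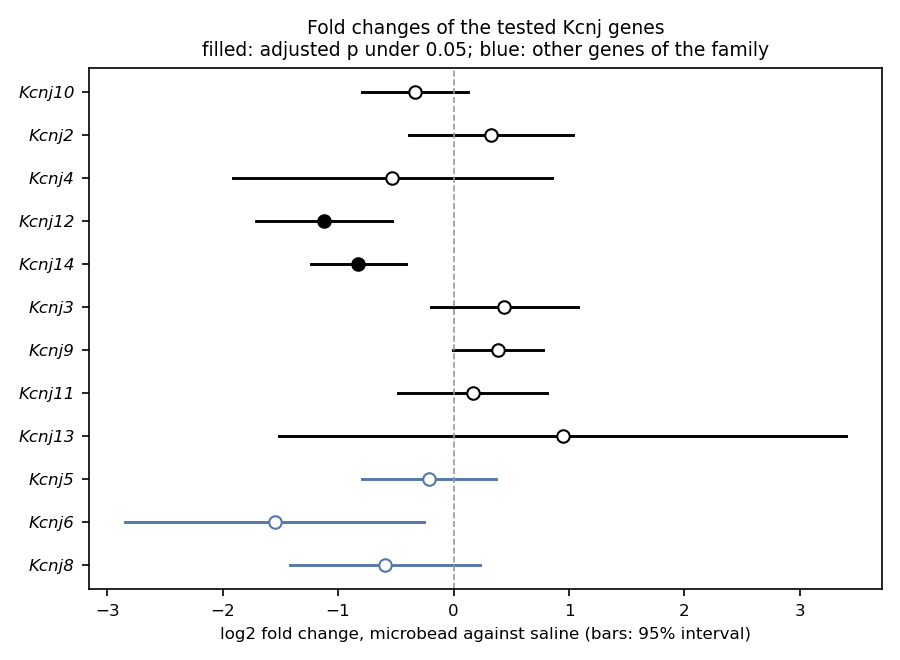
Log2 fold change of microbead against saline (horizontal axis) for the 9 tested members (black) and 3 other Kcnj genes (blue), with 95% intervals from edgeR and filled points for an adjusted p under 0.05. The intervals of Kcnj12 and Kcnj14 lie below 0, those of the other 7 members include 0, and that of Kcnj6 lies below 0 without its adjusted p (0.102) passing.

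Kcnj10 and Kcnj16 are the glial pair. Kcnj10 lies on chromosome 1 from 172341210 to 172374085 on the forward strand. It stood at 98.4, 123 and 133 CPM in saline and at 91.1, 115 and 75.4 CPM in microbead retina. The groups overlapped, and the log2 fold change of -0.33 (standard error 0.20, 95% interval -0.79 to 0.12) did not pass the test (adjusted p = 0.294 from edgeR). It was -0.18 with an offset for GC and length and -0.21 without microbead replicate 3. The sum of 10 Müller glia markers was 7414, 6876 and 10554 CPM in saline and 6763, 6664 and 5456 CPM in microbead retina. In edgeR 3 of the 10 were lower at the threshold (Sox9, Vim and Dkk3) and none higher, against 6.31% and 6.46% of all genes tested. With limma-voom 2 of the 10 were lower, against 5.86%. The part of the Müller glia markers in the values of Kcnj10 was not tested. Aqp4 encodes the water channel of the same glial endfeet. Per kb of exon, the ratio of Kcnj10 to Aqp4 was 0.743, 0.812 and 0.651 in saline and 0.790, 0.815 and 0.762 in microbead retina. The groups overlapped, with means of 0.736 and 0.789. For the markers Slc1a3, Rlbp1 and Glul the mean ratio was instead lower in microbead retina, also with overlapping groups. It was 0.742 and 0.619 for Slc1a3, 0.115 and 0.0995 for Rlbp1, and 0.0240 and 0.0218 for Glul (saline and microbead). Kcnj16 had 3, 9 and 14 counts in saline and 0, 4 and 4 counts in microbead retina, too few for the count filter of the main test. DESeq2, run without that filter, gave a log2 fold change of -0.31 (adjusted p = 0.915). In edgeR without microbead replicate 1 the value was 0.30. The count of 0 in microbead replicate 1 allows a level of up to 0.154 CPM.

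Kir4.1 is held at glial endfeet by the dystrophin complex together with aquaporin-4. Among genes of this anchoring complex, Sntb1, which encodes β1-syntrophin, had a log2 fold change of -1.11 that did not pass the test (adjusted p = 0.0828 from edgeR), and it passed without saline replicate 1 (adjusted p = 0.0396 from edgeR). Among 11 genes of PDZ scaffolds, which bind the tails of Kir2 and Kir4.1 channels, edgeR called 1 higher and 1 lower. Of all genes tested it called 6.46% higher and 6.31% lower, so 1 of 11 each way is read against this background. The median log2 fold change of the 11 was -0.14. Dlg4, which encodes PSD-95, was higher by 0.70 (adjusted p = 0.0400 from edgeR), and Cask was lower at -0.76 (adjusted p = 0.0288 from edgeR). Each of these calls held in 1 of the 6 fits that leave out a library, Dlg4 without microbead replicate 1 and Cask without saline replicate 1, with adjusted p of up to 0.151 and 0.109 in the others.

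Kcnj9 and Kcnj3 encode the Kir3 subunits GIRK3 and GIRK1. Kcnj9 lies on chromosome 1 from 172320501 to 172329318 on the reverse strand, next to Kcnj10 with a gap of 11.89 kb and no annotated gene between. It stood at 76.7, 104 and 96.3 CPM in saline and at 113, 125 and 123 CPM in microbead retina. All microbead libraries were above all saline libraries, but the log2 fold change of 0.38 (standard error 0.17, 95% interval -0.004 to 0.77) did not pass the test, with an unadjusted p of 0.052 and an adjusted p of 0.163 from edgeR. An antisense gene, Gm36937, overlaps Kcnj9 and was higher in microbead retina, at 0.797, 1.29 and 0.371 CPM against 2.52, 5.70 and 3.77 CPM (log2 fold change 2.27, adjusted p = 0.0278 from edgeR). Its call held without saline replicate 1 or saline replicate 3, and without any one of the other 4 libraries the adjusted p was 0.0508 to 0.105. The library kit marked strand, but the strand setting of the counting is not given in the sources used here. Kcnj3 was at 9.54, 16.5 and 17.9 CPM in saline and at 25.0, 19.6 and 15.1 CPM in microbead retina, with overlapping groups and a log2 fold change of 0.44 (95% interval -0.20 to 1.08, adjusted p = 0.321 from edgeR), which was 0.21 without saline replicate 1 and 0.24 without microbead replicate 1. Of its 100-base stretches, 27.3% also occur in the overlapping lincRNA gene Gm26794, which had at most 31 counts in any library.

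Neighbouring genes on chromosome 1 thus had log2 fold changes of opposite sign, neither past the threshold. Per kb of exon, the ratio of Kcnj10 to Kcnj9 was 1.02, 0.937 and 1.09 in the saline libraries and 0.637, 0.727 and 0.485 in the microbead libraries, without overlap. On chromosome 11, Kcnj2 and Kcnj16 are likewise neighbours with no annotated gene in their gap of 38.2 kb. Kcnj16 had too few counts for the main test.

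Of 24 genes listed for Gi/o signalling to Kir3 channels, 3 were lower and 0 were higher in edgeR, against 6.31% and 6.46% of all genes tested. Their median log2 fold change was -0.25, and whether they act on Kir3 channels in these retinas was not tested. At an unadjusted p under 0.05, 8 were lower and 1 was higher, against 16.2% and 15.3% of all genes tested, and with adjustment DESeq2 gave 4 lower and 0 higher, against 5.77% and 5.84% of all genes. Gnai1 and Gnai3, which encode inhibitory G protein α subunits, were lower at -0.96 (adjusted p = 0.0493 from edgeR) and -0.80 (adjusted p = 0.0345 from edgeR). Drd4, a dopamine receptor that couples to these proteins, was lower at -0.81 (adjusted p = 0.0264 from edgeR). With all 6 libraries and the threshold kept at 0.05, the call of Gnai1 held in 5 of 10 alternatives. Its adjusted p was 0.0544 from edgeR with RLE scaling, 0.0569 from edgeR with upper-quartile scaling and 0.0938 from limma-voom. With one library left out, the call of Gnai1 held only without saline replicate 1, that of Gnai3 only without saline replicate 1 or microbead replicate 2, and that of Drd4 only without saline replicate 1 or saline replicate 3, with adjusted p of up to 0.167, 0.131 and 0.0924 otherwise. Kctd16, an auxiliary subunit of GABAB receptors, had a value of -0.96 that did not pass (adjusted p = 0.250 from edgeR).

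Kcnj11 encodes the pore of ATP-sensitive channels, which close when ATP is plentiful. It was at 6.67, 11.7 and 12.4 CPM in saline and at 11.4, 9.39 and 13.8 CPM in microbead retina. The groups overlapped, the log2 fold change was 0.17 (95% interval -0.48 to 0.81, adjusted p = 0.729 from edgeR), and its sign turned, to -0.068, without saline replicate 1. The regulatory subunits that complete this channel, Abcc8 and Abcc9, had values of 0.38 (adjusted p = 0.304) and -0.59 (adjusted p = 0.348 from edgeR). Neither passed at an unadjusted p under 0.05 or in DESeq2 or limma-voom. Inward rectifiers need the lipid PIP2 to open. Of 5 genes for its supply, 0 passed after adjustment in edgeR, DESeq2 or limma-voom. At an unadjusted p under 0.05 edgeR and DESeq2 gave 0, and limma-voom gave 1 lower, against 15.9% of all genes tested. The largest values were those of Pi4kb (-0.41, adjusted p = 0.173 from edgeR) and Pip5k1a (-0.24, adjusted p = 0.310 from edgeR).

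Kcnj13 had the widest interval of the 9 tested members. Its counts were 0, 26 and 76 in saline and 59, 12 and 19 in microbead retina, or 0, 0.539 and 2.17 CPM and 3.04, 0.867 and 1.23 CPM. The saline and microbead libraries overlapped, and the log2 fold change of 0.95 had a standard error of 1.09 and an interval of -1.51 to 3.40 (adjusted p = 0.594 from edgeR). Without saline replicate 3 the log2 fold change was 2.61, and without microbead replicate 1 it was 0.22. The count of 0 in saline replicate 1 allows a level of up to 0.0797 CPM. Rpe65, which regenerates the visual chromophore in pigment epithelium, stood at 0.930, 4.52 and 28.4 CPM in saline and at 14.4, 7.58 and 7.21 CPM in microbead retina. Both genes were lowest in saline replicate 1 and highest in saline replicate 3 and microbead replicate 1. Of the 11 pigment epithelium markers, 0 passed in edgeR. At an unadjusted p under 0.05 edgeR gave 1 higher, where 15.3% of all genes tested were higher. DESeq2 called 1 higher, where it called 5.84% of all genes higher. Their summed level was 71.6, 157 and 359 CPM in saline and 194, 231 and 196 CPM in microbead retina. In microbead replicate 1 this sum was the lowest of the microbead libraries, whereas Kcnj13 and Rpe65 were highest of them there. The part of these markers in the values of Kcnj13 was not tested. Of the 100-base stretches of Kcnj13, 35.6% also occur in Gigyf2, which overlaps it on the opposite strand and had 4639 counts in the library where Kcnj13 had 0.

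**Figure D3:**
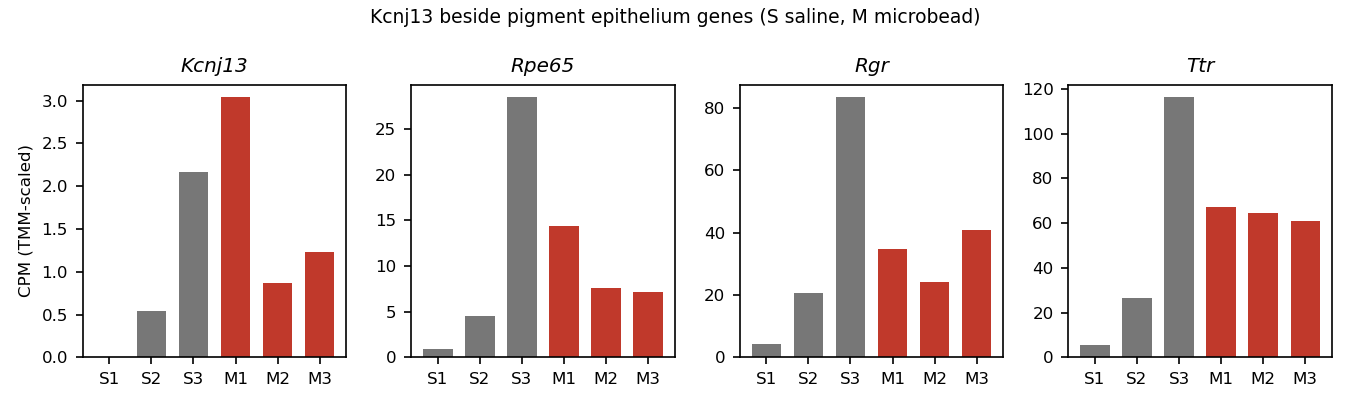
Level of Kcnj13 and of 3 pigment epithelium genes, Rpe65, Rgr and Ttr, in CPM (vertical axes, one scale per gene, bars from 0) in saline libraries S1 to S3 and microbead libraries M1 to M3. Kcnj13 is at 0 in saline replicate 1, where Rpe65 is at 0.930 CPM, and all 3 pigment epithelium genes are lowest there and highest in saline replicate 3, whereas Kcnj13 is highest in microbead replicate 1.

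Levels were compared between members per kb of exon. Kcnj14 was the most abundant member in both groups, at 199.7 ± 17.3 CPM per kb in saline and 112.8 ± 18.0 CPM per kb in microbead retina (SD, n = 3 each). In saline retina Kcnj10 (21.8 ± 3.27) and Kcnj9 (21.6 ± 3.31) came next and overlapped each other, followed by Kcnj12 (4.33 ± 0.749), which stood apart from Kcnj3 below it. From Kcnj3 down through Kcnj11, Kcnj2, Kcnj13 and Kcnj4 each overlapped its neighbour, and Kcnj16 was lowest, apart from Kcnj4, at 0.0564 ± 0.0414 CPM per kb. In microbead retina Kcnj9 (28.1 ± 1.46) stood above Kcnj10 (17.3 ± 3.65) without overlap. Kcnj12, at 1.99 ± 0.381 CPM per kb, had moved from rank 4 to rank 7, overlapping Kcnj13 below it. Kcnj3, Kcnj11 and Kcnj2 each stood 1 rank higher than in saline retina, below Kcnj10 and above Kcnj12, and each overlapped its neighbour below.

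As a share of the summed level of all 10 members per kb, Kcnj14 made up 80.6%, 75.9% and 77.7% in the saline libraries and 69.2%, 60.8% and 66.9% in the microbead libraries. Kcnj9 made up 7.69%, 9.60% and 7.95% in saline and 13.9%, 18.4% and 17.5% in microbead retina. Neither share overlapped between the groups, and since shares sum to a whole, a lower share of Kcnj14 raises the others. The summed level was 256 ± 25.0 CPM per kb in saline and 171 ± 17.2 CPM per kb in microbead retina. Without Kcnj14 it was 56.4 ± 9.82 and 58.5 ± 3.83 CPM per kb (SD, n = 3 each), a difference within the spread between libraries.

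**Figure D4:**
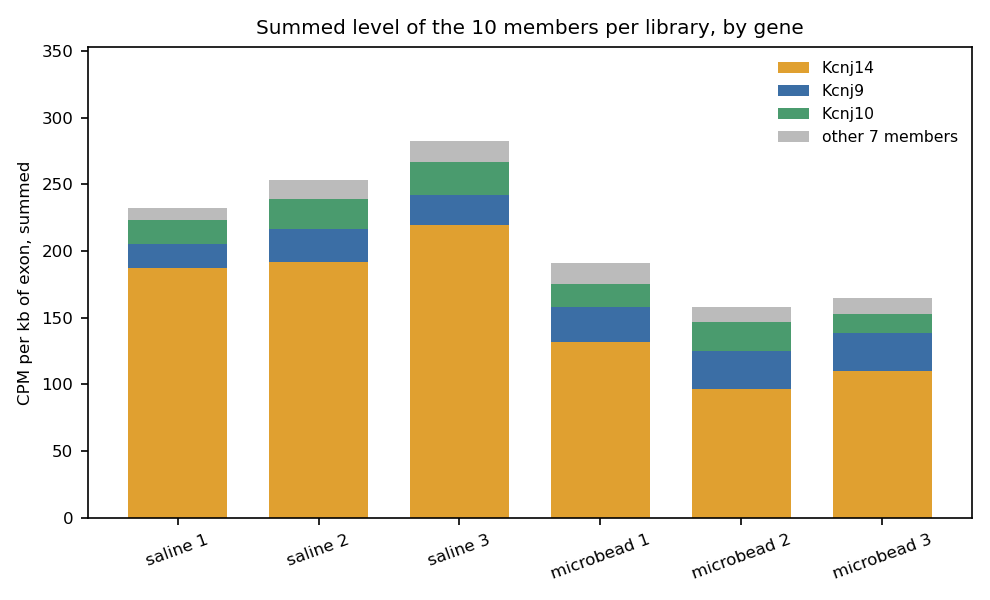
Summed level of the 10 members in CPM per kb of exon (vertical axis, stacked from 0) in each of the 3 saline and 3 microbead libraries, with Kcnj14, Kcnj9, Kcnj10 and the other 7 members in separate colours. The Kcnj14 layer, 75.9% to 80.6% of the stack in saline and 60.8% to 69.2% in microbead libraries, is smaller in every microbead library.

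Of the 5 Kcnj genes outside the members, 3 were tested and 0 passed in edgeR or limma-voom. At an unadjusted p under 0.05 edgeR gave 1 lower, where 16.2% of all genes tested were lower. DESeq2, which fitted all 5, called 1 lower, against 5.77% of all genes. The gene was Kcnj6 in both, which encodes GIRK2, a partner of GIRK1 and GIRK3. It stood at 4.22, 8.07 and 6.99 CPM in saline and at 0.618, 4.19 and 1.88 CPM in microbead retina. These groups did not overlap, as for 37.8% of all genes tested. The fitted change of Kcnj6 was -1.55 on the log2 scale with a standard error of 0.58, and its adjusted p was 0.102 in edgeR and 0.0276 in DESeq2. Kcnj8, the pore of vascular ATP-sensitive channels, was at -0.60 (adjusted p = 0.300 from edgeR) and Kcnj5, which encodes GIRK4, at -0.21 (adjusted p = 0.613 from edgeR).

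**Figure D5:**
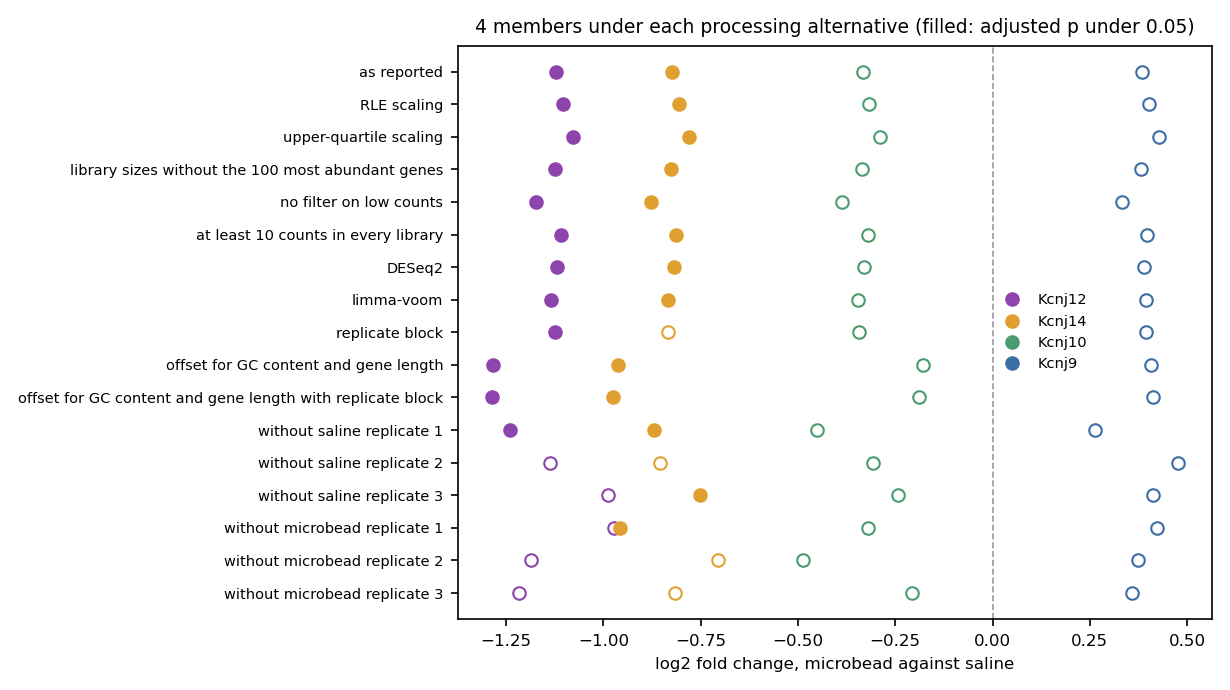
Log2 fold change of Kcnj12, Kcnj14, Kcnj10 and Kcnj9 (horizontal axis) under each way of processing the counts (rows), filled where the adjusted p was under 0.05. Kcnj12, Kcnj14 and Kcnj10 stay below 0 and Kcnj9 above 0 in every row shown. The calls of Kcnj12 and Kcnj14 are lost in several rows that leave out a library, and that of Kcnj14 also with the replicate block.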

How the data were processed

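Stranded libraries of polyadenylated RNA were sequenced as 100-bp pairs. The authors aligned the reads with STAR 2.5.3a to GRCm38.p5 with GENCODE vM12 annotation and deposited raw counts per gene from featureCounts 1.15.2. The same table holds the authors' DESeq2 comparison (fold changes and p-values), which was not used. No per-sample column was left out.

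Low genes were removed by filterByExpr at a minimum count of 10 and a minimum total of 15, and all 17707 remaining genes were compared with edgeR 4.0.16 in R 4.3.3 (TMM scaling, quasi-likelihood test, two-sided, Benjamini-Hochberg adjustment over all of them, threshold 0.05). Standard errors were the log2 fold change over the square root of F. Exon lengths, positions and sequences were taken from GENCODE vM21, which matched 99.6% of genes. The steps were tested on simulated data. Named were all members, and of the other lists the genes past the threshold and the 2 with the largest change. Aqp4, Slc1a3, Rlbp1, Glul, Rpe65 and genes overlapping a member were set beside members. Members and lists were chosen with earlier results of these data known. Alternatives were scaling by upper quartile or RLE, leaving the 100 most abundant genes out of library sizes, other count filters, DESeq2 1.42.0, limma-voom 3.58.1, a replicate block, an offset for GC content and length, a threshold of 0.01, and each library left out. Some sequences and a gene of the lists are not reported here.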

Additional observations from a re-analysis of the deposited data

How the results depend on the processing

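The 2261 genes past the threshold became 3720 with no filter on low counts, 3621 with DESeq2, 905 with the replicate number as a block, 983 with the block and an offset for GC content and length, and 87 at an adjusted p under 0.01, and ranged from 46 (without microbead replicate 3) to 2621 (without saline replicate 1) with a library left out. The 2 members past the threshold became 1 with the replicate block, where Kcnj14 had an adjusted p of 0.0529 from edgeR, and 0 at an adjusted p under 0.01, and ranged from 0 to 2 with a library left out. The log2 fold change of Kcnj11 turned to -0.068 without saline replicate 1, and was at most 0.33 (without saline replicate 3) with a library left out. With all 6 libraries and the threshold kept at 0.05, Kcnj12 passed under 10 of 10 alternatives and Kcnj14 under 9 of 10. Same-numbered libraries deviated together with correlations of -0.0351, 0.136 and 0.00997, so the numbers were not taken to pair the samples. Kcnj4 and Kcnj13 gave no value when each library had to hold at least 10 counts. Kcnj4, Kcnj13 and Kcnj16 were the members with the fewest counts, and the part of depth in their values was not tested. Kcnj13 had 0 counts in saline replicate 1 and 76 in saline replicate 3, at total counts of 36085737 and 37546884.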

Other observations

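Tandem-pore potassium channels of the Kcnk family carry the background potassium current that sets the resting potential beside the inward rectifiers. Of 14 listed, 9 were tested, and edgeR called 0, with 4 lower and 0 higher at an unadjusted p under 0.05, where 16.2% of all genes tested were lower and 15.3% higher, and a median log2 fold change of -0.46, against -0.03 over all genes. DESeq2 called 2 lower, where it called 5.77% of all genes lower, and limma-voom called 0. The largest values were those of Kcnk12 (-1.80, adjusted p = 0.0692 from edgeR) and Kcnk9 (-1.61, adjusted p = 0.145 from edgeR). With an offset for GC and length they were -0.997 for Kcnk12 and -1.40 for Kcnk9, in the opposite order.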
